A study of Mus musculus with 14 samples.

Results

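The 37 genes described here are regulators and markers of retinal progenitor cells and of the neurons these cells make: transcription factors of the eye field, Notch ligands and targets, growth and signalling genes, proneural factors and factors of cell fate. They were chosen by gene symbol, as a fixed list of names matched to the gene names of the deposited table, and all 37 were found among its 20902 genes. By role they fall into 8 eye field and progenitor factors, 6 Notch ligands, receptor and effectors, 5 progenitor growth and signalling genes, 7 proneural and SoxC genes, 9 horizontal and amacrine fate factors and 2 photoreceptor and bipolar fate factors. RNA was sequenced in C57BL/6 mice of 3 ages, the embryo (e16.5, embryonic day 16.5), the first postnatal week (P7) and the adult (P60), from 5 libraries of whole retina and 9 of sorted microglia, the macrophages that live in the retina. Whole retina came from wild-type mice, 3 libraries of e16.5 with 1 each of P7 and P60, and the labels name central retina for the e16.5 libraries. Microglia came from Cx3cr1-GFP mice, whose microglia carry green fluorescent protein, with 3 libraries per age, and were sorted as GFP+ CD45+ CCR2- cells. Each microglia library pooled animals: 1 to 2 litters at e16.5, 5 to 12 retinas at P7 and 7 to 14 retinas at P60. Genotype, sort, RNA kit and library preparation differed together between microglia and whole retina, so that they cannot be told apart in any comparison of these tissues. Likewise, age and sampled region cannot be told apart where whole retina of e16.5 is compared with a later age.

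In the embryonic retina, a dividing progenitor population makes all retinal neurons and Müller glia in a set order, with ganglion, horizontal, cone and amacrine cells first and rods, bipolar cells and Müller glia later. Progenitors are held in division by eye field factors such as Pax6 and Rax and by Notch signalling, in which Delta-like ligands on a differentiating cell activate Notch1 on its neighbours, and the transcription factor RBPJ then switches on the repressors Hes1 and Hes5. Cells that escape this repression switch on proneural basic helix-loop-helix factors such as Atoh7 and Neurog2, and then factors that fix their fate.

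Promoter sequence is shown for 3 members whose upstream region held an element of this pathway, so that the letters can be read beside the expression values below. Windows of 250 bases before each annotated gene start were taken from RefSeq on build GRCm38.p6, with 39 windows for 31 of the 37 members. In these, 5 short motifs were searched on both strands. Hes1, Rax, Sox9, Onecut2, Fgf15 and Ccnd1 had no window and were not searched. The motifs and the windows shown were picked after the matches had been seen. The Hes5 window, chr4:154960673-154960922 on the plus strand, held the RBPJ motif GTGGGAA at positions -226 (as its reverse complement) and -83 from the gene start, in capitals here.
Hes5: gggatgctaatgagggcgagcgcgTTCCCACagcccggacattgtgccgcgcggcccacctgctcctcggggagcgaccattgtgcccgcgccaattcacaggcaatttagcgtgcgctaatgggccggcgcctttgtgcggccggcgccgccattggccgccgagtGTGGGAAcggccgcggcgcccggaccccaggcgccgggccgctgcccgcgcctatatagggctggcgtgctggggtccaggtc
The Sox4 window, chr13:28953700-28953949 on the minus strand, held the E-box CAGCTG, a sequence that basic helix-loop-helix factors can bind, at position -211.
Sox4: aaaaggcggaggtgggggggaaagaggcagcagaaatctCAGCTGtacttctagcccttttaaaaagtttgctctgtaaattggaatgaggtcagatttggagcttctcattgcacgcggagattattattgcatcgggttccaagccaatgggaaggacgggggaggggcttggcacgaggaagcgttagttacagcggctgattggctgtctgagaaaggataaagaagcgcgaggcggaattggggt
One of the Dll1 windows, chr17:15376933-15377182 on the minus strand, held the same E-box at position -132, again in capitals.
Dll1: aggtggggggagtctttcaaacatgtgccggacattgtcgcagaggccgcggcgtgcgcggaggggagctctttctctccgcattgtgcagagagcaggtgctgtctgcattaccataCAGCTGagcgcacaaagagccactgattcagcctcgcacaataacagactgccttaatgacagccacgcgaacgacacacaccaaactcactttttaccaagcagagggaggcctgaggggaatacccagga
None of the 5 motifs set the members far apart from promoters in general, of which 32851 windows were searched. GTGGGAA stood in 2.56% of member windows (Hes5 alone) and in 5.42% of all windows. CAGCTG stood in 10.26% of member windows (Dll1, Dll3, Sox4 and Sox11) and in 13.0% of all. The Hes-binding N-box CACNAG stood in 38.46% against 36.67%, the homeodomain motif TAATTA in 7.69% against 4.84%, and the OTX motif TAATCC in 7.69% against 6.25%. A match is a run of letters and not a measured binding site, and a window without one lacks only those letters.

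Whole retina libraries held 20469100 to 24361772 counts and microglia libraries 8996298 to 17446905. Levels are given as counts scaled to library size (CPM), scaled for library composition with TMM factors. The 10 microglia markers summed to between 8251 and 16920.0 CPM in the 9 microglia libraries and to at most 78.4 CPM in whole retina, and each of the 10 had reads at every age of microglia. Whole retina at e16.5 had rod markers summing to 15.99 to 22.95 CPM, against 9759 CPM at P7 and 63540.0 CPM at P60. In bulk samples such as these, fewer cells of a type and less RNA per cell cannot be told apart.

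In whole retina the set as a whole was most abundant at e16.5 and lowest in the adult. Its 37 genes summed to 10550.0 ± 161 CPM in the embryo (SD, n = 3), 4830.0 CPM at P7 and 1452 CPM at P60. With 1 library at each later age, these differences were described by their size and not tested. A difference was counted when the ratio of CPM, after adding 0.1 CPM, reached 4-fold, and e16.5 was taken as the mean of its 3 libraries. From e16.5 to P7, 13 members were at least 4-fold lower and 2 were at least 4-fold higher, where 4.39% and 9.53% of the 15827 measured genes were lower and higher by that much. From e16.5 to P60, 24 were at least 4-fold lower and 0 higher, against 9.98% lower and 15.4% higher of all genes. From P7 to P60, 17 were at least 4-fold lower and 0 higher, against 3.94% lower and 4.3% higher. The median log2 ratio of the members was -1.04 at P7 and -2.84 at P60 relative to e16.5, and 0.04 and 0.03 over all measured genes. All 37 members were lower at P60 than at P7, with a median log2 ratio of -1.53.

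**Figure D1:**
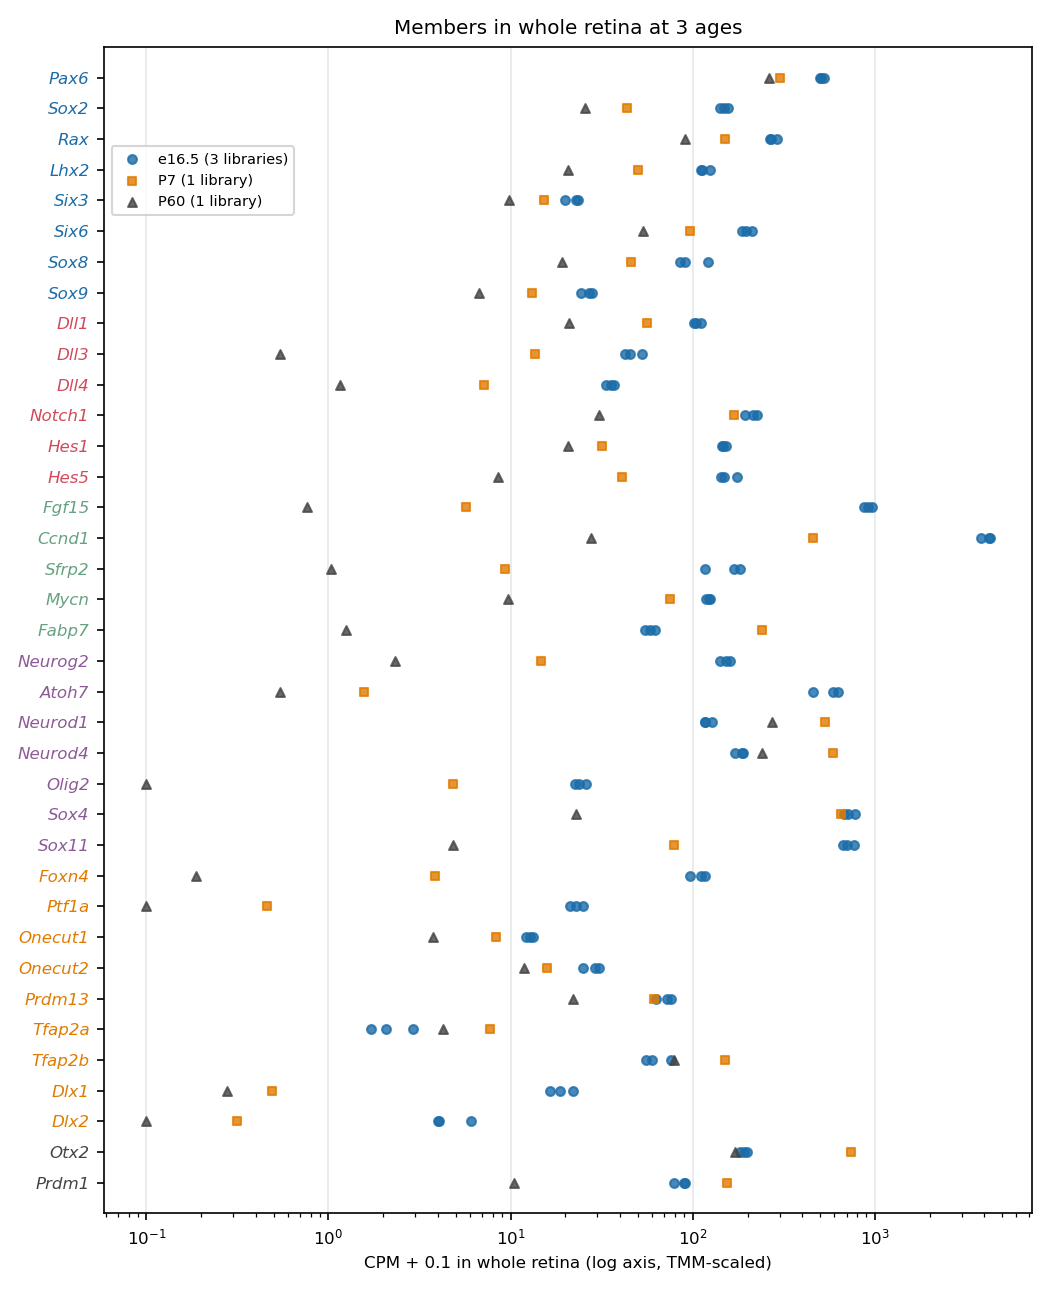
Level of each of the 37 genes in whole retina, as CPM plus 0.1 on a log axis, with 3 points for the libraries of e16.5 and 1 point each for P7 and P60; gene names are coloured by role. At P7, 30 genes lie below all 3 e16.5 libraries and 7 above them; at P60, 33 lie below and 4 above.

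Against the range of the 3 e16.5 libraries, 30 members were below it at P7 and 33 at P60. Over the 15827 measured genes, 42.8% were below that range and 46.5% above it at P7, and 45.1% below and 47.5% above at P60. The 7 members above the range at P7 were Fabp7, Neurod1, Neurod4, Tfap2a, Tfap2b, Otx2 and Prdm1. At P60 the 4 above it were Neurod1, Neurod4, Tfap2a and Tfap2b. The members differed in timing: some, such as Atoh7 and Fgf15, were nearly absent by P7, some, such as Sox4 and Notch1, were kept to P7 and low in the adult, and some, such as Otx2 and Fabp7, were highest at P7.

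All 8 eye field and progenitor factors were below their e16.5 range at both later ages, none by 4-fold at P7 and 3 (Sox2, Lhx2 and Sox8) at P60. Their median log2 ratio to e16.5 was -1.03 at P7 and -1.94 at P60. Pax6, a factor that specifies the eye field and stays on in amacrine and ganglion cells, measured 499, 523 and 506 CPM in the e16.5 libraries, 303 CPM at P7 and 263 CPM at P60. It was the best kept of the 8, at 51.6% of its e16.5 level in the adult. Sox2, which keeps progenitors multipotent and marks adult Müller glia, measured 148, 155 and 142 CPM at e16.5, 43.3 CPM at P7 and 25.5 CPM at P60. Rax, needed for the optic vesicle to form, measured 289, 266 and 269 CPM at e16.5, 150 CPM at P7 and 90.9 CPM at P60. These values left Rax at 33.1% and Sox2 at 17.2% of the embryonic level. Lhx2, a LIM homeodomain factor of progenitors and Müller glia, was at 43.0% of its e16.5 level at P7 and 17.8% at P60. The homeodomain factors Six3 and Six6 stood at 69.1% and 48.8% at P7 and at 43.8% and 26.8% at P60. Sox8 and Sox9, SoxE factors of glial lineages, stood at 46.4% and 49.2% at P7 and at 19.2% and 24.9% at P60. Sox9 was thus 4.022-fold lower at P60 by CPM, and fell just short of 4-fold once 0.1 CPM was added (log2 ratio -1.992).

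All 6 Notch pathway members were at least 4-fold lower in the adult than at e16.5, but the ligands, the receptor and the targets differed at P7. Notch1, the receptor, measured 226, 195 and 214 CPM at e16.5, 170 CPM at P7 and 30.6 CPM at P60. It was thus at 80.2% of the embryonic level at P7 and at 14.5% at P60. Hes1 and Hes5, the transcriptional repressors that Notch signalling induces, were already low at P7. Hes5 measured 174, 143 and 148 CPM at e16.5, 40.7 CPM at P7 and 8.38 CPM at P60, and Hes1 145, 152 and 146 CPM, then 31.8 and 20.6 CPM. Of the ligands, Dll1 was the best kept, at 112, 104 and 102 CPM at e16.5, 56.3 CPM at P7 and 20.9 CPM at P60. Dll4, a ligand of cells leaving division, measured 36.8, 35.4 and 33.3 CPM at e16.5, 7.03 CPM at P7 and 1.06 CPM at P60. Dll3, which is expressed in differentiating neurons and does not activate Notch on neighbours as Dll1 does, measured 52.3, 45.1 and 42.3 CPM at e16.5 and 13.5 CPM at P7. Only 10 reads of Dll3 were counted at P60, 0.441 CPM with an exact 95% binomial interval of 0.211 to 0.811, which like all such intervals here covers counting error only.

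Of the 5 progenitor growth and signalling genes, 3 were at least 4-fold lower at P7, 1 was higher, and all 5 were lower in the adult. Ccnd1, the D-type cyclin of dividing retinal progenitors, was the most abundant member, at 4252, 3825 and 4283 CPM at e16.5, 455 CPM at P7 and 27.5 CPM at P60. It was thus 9.05-fold lower at P7 and 150-fold lower at P60 than at e16.5. Fgf15, a growth factor secreted by progenitors, measured 872.7, 959.6 and 919 CPM at e16.5, 5.60 CPM at P7 and 0.661 CPM at P60. At P7 it was 164-fold lower, next only to Atoh7 among the members. Fgf15 (chr7:144896531-144900953) and Ccnd1 (chr7:144929931-144939925) are neighbours on mouse chromosome 7 (GRCm38). Sfrp2, a secreted modulator of Wnt signalling, measured 156 ± 34.4 CPM at e16.5 (SD, n = 3), 9.21 CPM at P7 and 0.926 CPM at P60. Mycn, which drives progenitor growth, went from 122, 125 and 118 CPM at e16.5 to 75.1 CPM at P7 and 9.57 CPM at P60, so most of its difference lay after P7. Fabp7, a fatty acid binding protein of radial and other immature glia, had another course, with 62.3, 58.4 and 54.9 CPM at e16.5, 240 CPM at P7 and 1.15 CPM at P60. It was 4.105-fold above e16.5 at P7 and 209.5-fold lower at P60 than at P7, the widest ratio between P7 and P60 in the set.

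The 7 proneural and SoxC genes separated into early and late members. Atoh7, the factor that makes progenitors competent to become ganglion cells, measured 459, 628 and 589 CPM at e16.5, 1.46 CPM at P7 and 0.441 CPM at P60. The P7 value rests on 41 reads (interval 1.05 to 1.99 CPM) and was 382-fold lower than at e16.5, the widest ratio in the set over that interval. Atoh7 lies at chr10:63099651-63101279 (GRCm38, plus strand). Neurog2, a proneural factor of cycling progenitors, measured 160, 153 and 141 CPM at e16.5, 14.6 CPM at P7 and 2.21 CPM at P60. Olig2, which marks progenitors in their last divisions, measured 25.9, 23.6 and 22.6 CPM at e16.5 and 4.71 CPM at P7, with 0 reads at P60. Against a limit of 3 reads, that is at least 181.7-fold lower than at e16.5. Neurod1 and Neurod4, which act later in photoreceptor, amacrine and bipolar differentiation, ran the other way. Neurod1 measured 127, 117 and 117 CPM at e16.5, 534 CPM at P7 and 272 CPM at P60. Neurod4 measured 188, 187 and 170 CPM at e16.5, 586 CPM at P7 and 239 CPM at P60. Both were above every e16.5 library at both later ages, by 4.43-fold and 3.22-fold at P7. The SoxC factors, which promote differentiation of newborn neurons, differed from each other at P7. Sox4 measured 779, 679 and 711 CPM at e16.5, 649 CPM at P7 and 22.9 CPM at P60. Sox11 measured 704, 765 and 672 CPM at e16.5, 79.2 CPM at P7 and 4.72 CPM at P60. At P7 Sox4 was thus at 89.7% of its e16.5 level and Sox11 at 11.1%, and in the adult they were at 3.17% and 0.661%.

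Among the 9 horizontal and amacrine fate factors, 4 were at least 4-fold lower at P7 and again at P60, and these were the factors that act early in specification. Foxn4, which gives progenitors the competence for both fates, measured 111, 96.3 and 117 CPM at e16.5, 3.75 CPM at P7 and 0.0882 CPM at P60, where only 2 reads were counted (interval 0.0107 to 0.319 CPM). Ptf1a, which acts downstream of Foxn4, measured 24.98, 21.07 and 22.64 CPM at e16.5 and 0.357 CPM at P7, 64.2-fold lower, with 0 reads at P60. Dlx1 measured 16.26, 18.51 and 22.02 CPM at e16.5 and 0.393 CPM at P7, and its neighbour on chromosome 2, Dlx2, measured 3.97, 3.87 and 5.96 CPM and then 0.214 CPM. Dlx1 and Dlx2, homeodomain factors of ganglion and interneuron precursors, were 48.2-fold and 21.5-fold lower at P7 on 11 and 6 reads. The Onecut factors of horizontal cells differed less. Onecut1 measured 12.0, 13.1 and 12.7 CPM at e16.5, 8.21 CPM at P7 and 3.66 CPM at P60, and Onecut2 was at 56.5% and 41.8% of its e16.5 level at the later ages. Prdm13, a factor of amacrine subtypes, measured 75.6, 63.1 and 72.3 CPM at e16.5, 60.9 CPM at P7 and 31.3% of its e16.5 level at P60. The AP-2 factors of postmitotic amacrine cells were highest at P7. Tfap2b measured 76.4, 59.5 and 55.3 CPM at e16.5, 151 CPM at P7 and 78.5 CPM at P60, and Tfap2a, much lower, measured 2.83, 1.96 and 1.62 CPM, then 7.601 and 4.145 CPM.

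Both photoreceptor and bipolar fate factors were highest at P7. Otx2, which specifies photoreceptors and bipolar cells and stays on in them, measured 199.1, 190.3 and 181.7 CPM at e16.5, 739 CPM at P7 and 170 CPM at P60, just below the e16.5 libraries. Prdm1, which holds Otx2-expressing precursors to the photoreceptor fate and away from the bipolar fate, measured 89.9, 91.0 and 78.9 CPM at e16.5, 155 CPM at P7 and 10.3 CPM at P60. In the adult, Otx2 was at 89.1% of its embryonic level and Prdm1 at 11.9%.

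**Figure D2:**
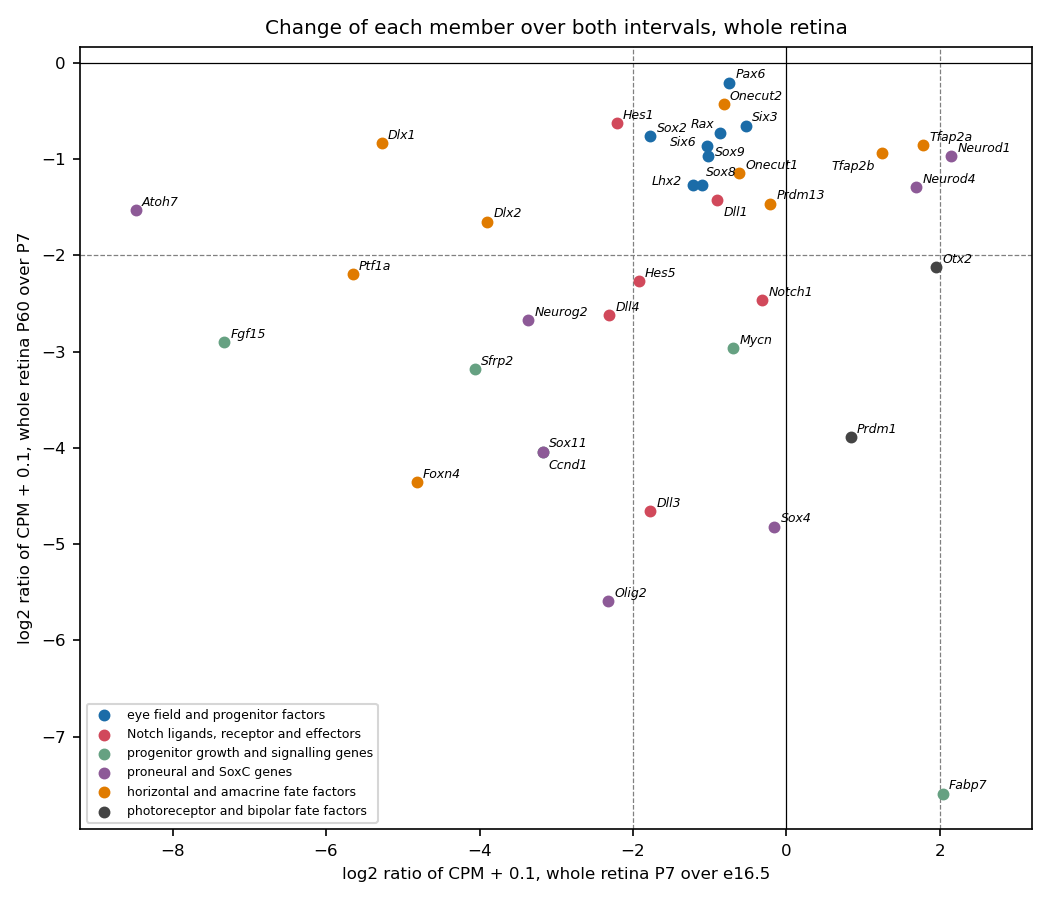
Log2 ratio of CPM plus 0.1 in whole retina from e16.5 to P7 (x axis) and from P7 to P60 (y axis), 1 point per gene, coloured by role, with dashed lines at 4-fold. All 37 genes lie below 0 on the y axis; Atoh7 and Fgf15 lie farthest left, Fabp7 lowest, and Sox4, Notch1 and Mycn near 0 on the x axis with low y values.

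Per length, as deposited FPKM (fragments scaled to gene length and library size), the leading members changed with age. At e16.5 the highest were Ccnd1 at 1604 ± 273 FPKM, Atoh7 at 843 ± 148, Fgf15 at 524 ± 28.4 and Pax6 at 441 ± 9.001 (SD, n = 3). Hes5 followed at 389 ± 33.4 FPKM. At P7 they were Otx2 at 493 FPKM, Fabp7 at 362, Pax6 at 254 and Neurod1 at 180. At P60 they were Pax6 at 215 FPKM, Otx2 at 120, Neurod1 at 95.6 and Neurod4 at 67.3. Pax6 was the only gene among the 4 highest at all 3 ages.

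Other genes of the same pathways gave a background to these courses. Of 32 further Notch pathway genes, 1 was at least 4-fold lower at P7 and 0 higher, with a median log2 ratio of -0.29. At P60, 10 were at least 4-fold lower and 1 higher, with a median of -0.82. Heyl, Hes6 and Nrarp had the lowest ratios at P60, with log2 values of -4.95, -4.39 and -3.77. The ligand Jag1 was the 1 higher gene, at 8.29 ± 0.926 CPM at e16.5 (SD, n = 3) and 214 CPM at P60. Of 37 measured further neurogenic and fate factors, 6 were higher and 3 lower by 4-fold at P7, and 8 higher and 12 lower at P60. Nr2e3, Nrl and Vsx1, factors of rods and bipolar cells, led the higher side at P60, with log2 ratios of 9.996, 8.311 and 7.214. Of 21 cell division genes, 13 were at least 4-fold lower at P7 and 18 at P60, with medians of -2.66 and -4.45. Mki67, Top2a and Rrm2 had the lowest P60 ratios, at -10.60, -9.81 and -9.07. The cell division genes thus had a lower median than the 37 members at both ages, a difference that was not tested.

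Sorted microglia of e16.5 held far less RNA of most members than whole retina of that age. In edgeR's quasi-likelihood test over 16140 genes, with Benjamini-Hochberg adjusted p under 0.05, 29 of the 37 members were lower in microglia and 1 was higher. Over all genes tested, 30.1% were lower and 33.1% higher. DESeq2 called 29 members lower and 2 higher, where 29.8% and 32.5% of its genes were called. The median log2 fold change of the members was -3.04, against -0.13 over all genes. The 3 microglia libraries lay below all 3 retina libraries for 30 members, above them for 1 and overlapped for 6. Of the 17755 genes with at least 1 CPM in 1 of these libraries, 41.9% lay below in the same way and 32.1% above. For each microglia library, the median member stood at 8.51%, 10.1% and 7.46% of its level in whole retina, a mean of 8.68% ± 1.31 (SD, n = 3), where the median of 13715 genes was 52.2%. In the same libraries the median ganglion cell marker stood at 8.73% of whole retina and the median Müller glia marker at 9.62%. Markers of other neurons stood higher, at 52.2% for amacrine and horizontal, 205.8% ± 291 for rod and 179.8% ± 53.1 for bipolar markers (SD, n = 3). These medians rest on 6, 7 and 2 markers with at least 1 CPM in whole retina. The part of these cell types in the members' values was not tested. The 9 ganglion cell markers summed to 149 to 251 CPM in these microglia and 2349 to 2491 CPM in whole retina, and each had reads in both. The 8 Müller glia markers summed to 1212 to 1610.0 CPM and 2962 to 3073 CPM, with Rlbp1 at 0 in microglia.

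**Figure D3:**
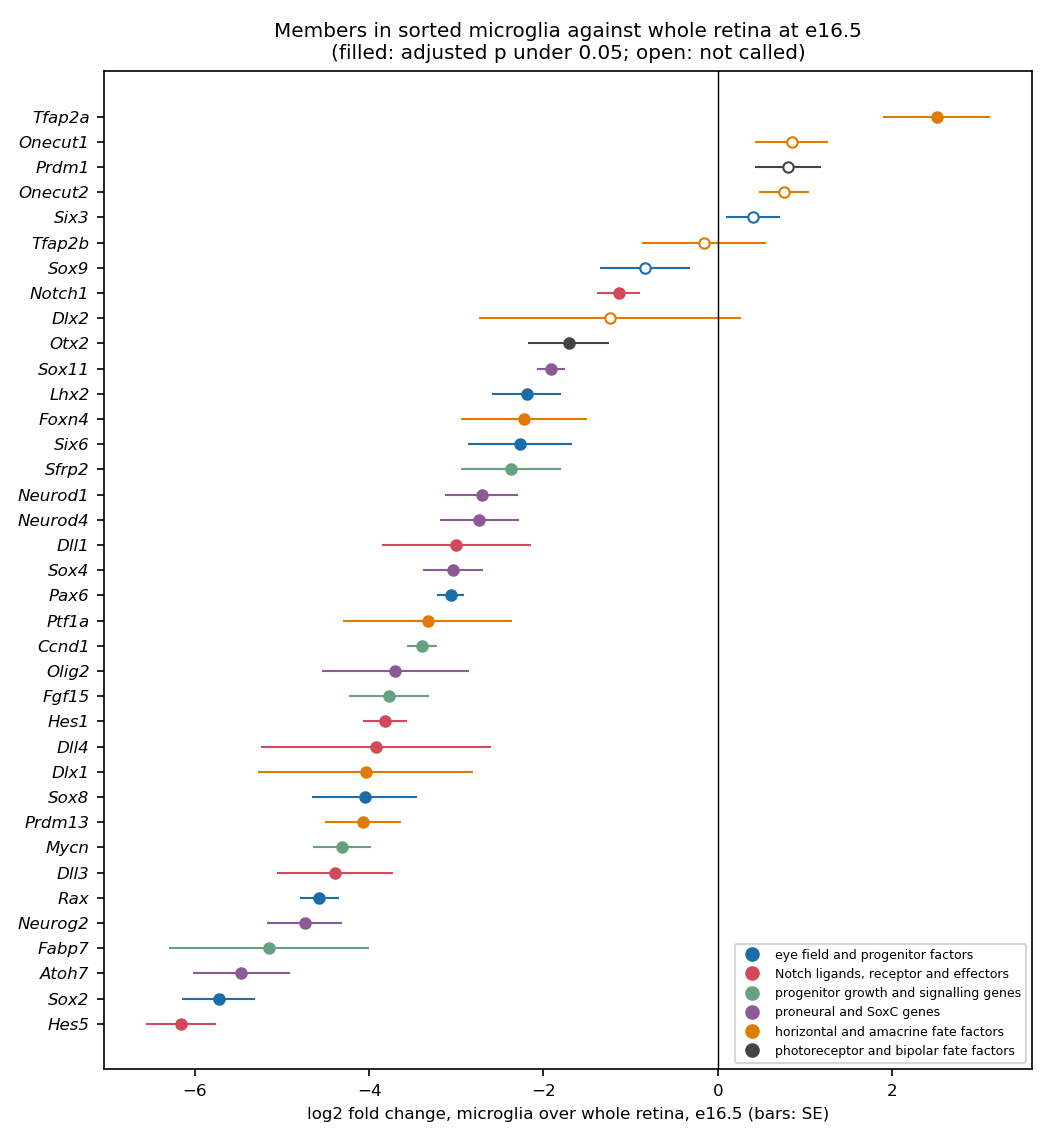
Log2 fold change of each gene in microglia over whole retina at e16.5, with SE bars from edgeR (3 libraries against 3), coloured by role; filled points passed an adjusted p of 0.05. Of 37 genes, 29 filled points lie below 0 and 1, Tfap2a, above it.

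Hes5, Sox2 and Atoh7 had the steepest fold changes of the 29. Hes5 measured 1.59, 2.67 and 1.03 CPM in the e16.5 microglia and 143 to 174 CPM in whole retina (log2 fold change -6.16, SE 0.40, edgeR adjusted p = 3.6e-05). Sox2 measured 2.67, 3.06 and 1.10 CPM in microglia against 142 to 155 CPM (log2 -5.72, SE 0.42, edgeR adjusted p = 5.8e-05). Atoh7 measured 18.8, 4.94 and 7.02 CPM against 459 to 628 CPM (log2 -5.47, SE 0.56, edgeR adjusted p = 0.000252). In all 3 genes the groups were far apart, and the microglia libraries were low but not at 0. Neurog2, Rax, Dll3, Mycn, Prdm13, Sox8, Dlx1 and Fabp7 were between 16.4-fold and 35.5-fold lower. Pax6, at 48.5, 54.1 and 45.3 CPM in microglia, was 8.36-fold lower than in whole retina. Ccnd1, at 305, 343 and 303 CPM, was 10.5-fold lower and still the most abundant member in microglia. Notch1, at 97.6, 52.7 and 82.7 CPM, was 2.20-fold lower, the smallest difference among the 29 (edgeR adjusted p = 0.00596). When each library's own gene length entered the fit, Notch1, Dll1 and Dll4 were no longer called (edgeR adjusted p = 0.736, 0.066 and 0.302). Leaving out 1 library ended the calls of Dll4 (microglia replicate 1 or any retina replicate), Foxn4 and Dlx1 (microglia replicate 2 or any retina replicate), Ptf1a (any retina replicate), Tfap2a (retina replicate 2 or 3), and Six6 and Dll1 (microglia replicate 1), with edgeR adjusted p between 0.0516 and 0.0912.

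The 7 members not called were Six3, Sox9, Onecut1, Onecut2, Tfap2b, Dlx2 and Prdm1. Six3 measured 17.9, 29.7 and 23.3 CPM in microglia and 23.5, 19.9 and 22.8 CPM in whole retina, so the groups overlapped. Onecut1 measured 21.1, 23.9 and 9.91 CPM against 12.0, 13.1 and 12.7 CPM, and Onecut2 49.0, 28.6 and 37.6 CPM against 29.0, 30.3 and 24.8 CPM. Prdm1 measured 159, 56.0 and 152 CPM in microglia and 89.9, 91.0 and 78.9 CPM in whole retina, with microglia replicate 2 below the retina and the other two above it. The only member called higher was Tfap2a, at 17.1, 6.51 and 5.92 CPM in microglia against 2.83, 1.96 and 1.62 CPM (log2 2.51, SE 0.61, edgeR adjusted p = 0.0098). That call was lost with the gene length offset (adjusted p = 0.0621), without retina replicate 2 (0.0545) and without retina replicate 3 (0.0589).

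At P7 and P60 whole retina has 1 library, and the test is that of the authors' deposited table. For e16.5 that table lists 24 of 35 members lower and 0 higher, with 4665 of its 20132 genes lower and 5464 higher. There Tfap2a (adjusted p = 0.0841), Notch1 (0.636), Dll1 (0.105) and Dll4 (0.278) do not pass, unlike in edgeR. Hes1 and Olig2 have no adjusted p in it. At P7 it lists 21 of 35 members with an adjusted p as lower in microglia at p under 0.05 and 0 higher, where 13.0% of its genes are lower and 18.4% higher. At P60 the authors' deposited table lists 19 of 35 members lower and 2 higher, where 17.1% of genes are lower and 21.0% higher. The median member in microglia stood at 9.73% ± 2.01 of whole retina at P7 (SD, n = 3, 34 members with at least 1 CPM in whole retina) and at 9.44% ± 4.50 at P60 (28 members). For all genes the medians were 56.1% and 52.5%. Members under 1 CPM in whole retina are left out of these medians, so the genes differ between ages. Over the 28 members that reached 1 CPM in whole retina at every age, the embryonic median was 10.2% ± 2.18 (SD, n = 3), with 10.03% ± 1.53 for P7 and 9.44% ± 4.50 for P60. By library the median was 7.54%, 11.5% and 10.1% at P7 and 4.86%, 13.9% and 9.62% at P60. Rod markers summed to 742 to 4510.0 CPM in P60 microglia, 343 to 418 CPM in P7 microglia and 23.8 to 49.7 CPM in e16.5 microglia. The rod median stood at 1.30%, 7.10% and 0.861% of whole retina in P60 replicates 1 to 3, with replicate 2 highest as for the members. The bipolar median, at 1.185%, 18.12% and 0.904%, was also highest there. Replicate 2 was lowest for ganglion cell markers (2.74%, 0.391% and 1.35%) and Müller glia markers (6.39%, 3.02% and 4.17%). It was also lowest for amacrine and horizontal markers (0.710%, 0.285% and 3.55%). The part of these cell types in the members' values was not tested.

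**Figure D4:**
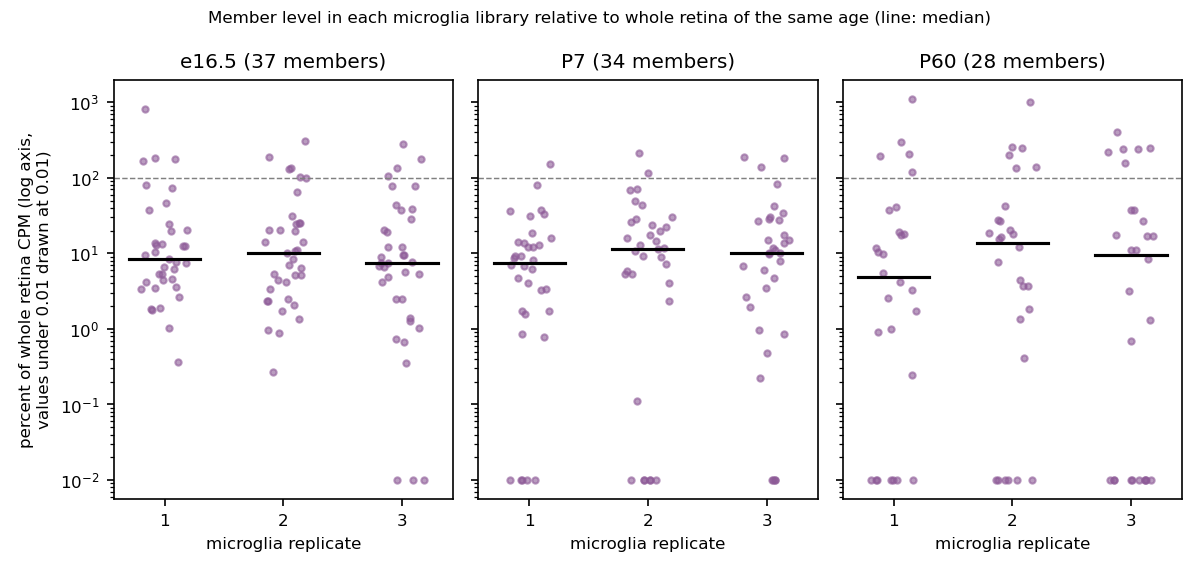
Level in each microglia library as a percent of whole retina of the same age, for the members with at least 1 CPM in that whole retina (37, 34 and 28 genes in the order of age), on a log axis with values under 0.01% drawn at 0.01%; horizontal bars mark the median of each library and the dashed line 100%. Medians lie between 4.86% and 13.9% in all 9 libraries, and 5 of the 28 genes drawn at P60 lie above 100% in all 3 libraries.

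In the adult, 8 of the 37 members had a higher CPM in all 3 microglia libraries than in the whole retina library, and 24 had a lower CPM in all 3. Only 31 of the 37 had at least 1 CPM in 1 of these libraries. Over the 18423 genes that did, 31.7% were above whole retina and 42.7% below it in the same way. Among the 8, Prdm1, Notch1, Tfap2a, Ccnd1 and Sox4 had at least 1 CPM in whole retina, and Fgf15, Dll3 and Dlx1 had less. Prdm1 measured 114, 103 and 24.6 CPM in P60 microglia and 10.3 CPM in whole retina, or 778% ± 470.0 of it (SD, n = 3). It was also the 1 member above whole retina in all 3 microglia libraries at P7, with 234, 179 and 281 CPM against 155 CPM. Notch1 measured 91.5, 74.7 and 76.2 CPM in P60 microglia and 30.6 CPM in whole retina. Ccnd1 measured 56.1, 55.2 and 65.4 CPM against 27.5 CPM, and Sox4 44.7, 32.3 and 35.4 CPM against 22.9 CPM. Dll3, at 0.441 CPM in the adult retina, measured 2.51, 3.57 and 4.38 CPM in the microglia libraries. Dlx1 measured 0.193, 1.53 and 1.52 CPM against 0.176 CPM, on 4 reads in whole retina (interval 0.0481 to 0.452 CPM), and microglia replicate 1 lay within that interval. Of these 8, the authors' deposited table gives an adjusted p under 0.05 for Prdm1 (log2 fold change 2.84, adjusted p = 0.00253) and for Fgf15 (log2 2.38, adjusted p = 0.0323), and not for Notch1 (0.684), Ccnd1 (0.12), Sox4 (0.142), Tfap2a (0.262), Dll3 (0.119) or Dlx1 (0.41). Fgf15 was low in both tissues, at 1.16, 6.11 and 2.77 CPM in microglia and 0.661 CPM in whole retina. By mean FPKM, Notch1 was the highest member in microglia at P7 and P60, at 104 ± 118 and 79.1 ± 46.2 (SD, n = 3). At e16.5 it was second to Ccnd1, with 87.6 ± 59.9 against 119 ± 39.0 FPKM. These ranks did not hold in every library. At P7 Notch1 measured 51.7, 239 and 20.6 FPKM, and Fabp7 reached 111 FPKM in replicate 3. In P60 replicate 2 Notch1 was at 26.3 FPKM and Otx2 at 34.7 FPKM. Adult whole retina held 48.9 FPKM of Notch1, so that replicate lay below it on this scale. Dlx1 in P60 replicate 1 was also below, at 0.0594 FPKM against 0.0693 FPKM in whole retina.

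Between ages of microglia edgeR called members lower with age or did not call them, and DESeq2 called 1 higher, Fabp7 from e16.5 to P7. The fit held the 9 microglia libraries and 16019 genes, among them 33 members; Dll4, Hes5, Ptf1a and Dlx2 were too low to be tested. From e16.5 to P7, edgeR called 3 members lower (Fgf15, Ccnd1 and Sox11) and 0 higher, where 0.0687% of genes were lower and 0.131% higher. From P7 to P60, 3 were lower (Mycn, Fabp7 and Sox11) and 0 higher, where 1.09% of genes were lower and 0.262% higher. From e16.5 to P60, 11 were lower and 0 higher, where 2.5% were lower and 0.861% higher. These 11 were Lhx2, Six3, Fgf15, Ccnd1, Sfrp2, Mycn, Atoh7, Sox11, Foxn4, Onecut1 and Onecut2. At an unadjusted p under 0.05, edgeR gave 2, 1 and 1 members higher in the 3 comparisons, in that order, DESeq2 called 1, 0 and 0 higher and limma-voom 0 in each. DESeq2 called 8, 12 and 23 members lower, where it called 1.12%, 6.0% and 7.92% of all genes lower and 0.994%, 3.21% and 4.76% higher. The summed CPM of all 37 members was 1246 ± 93.4, 826 ± 83.7 and 382 ± 32.1 over the 3 ages (SD, n = 3). From e16.5 to P7 all later microglia libraries lay below the earlier ones for 16 members and above for 3, where 6.72% of genes with at least 1 CPM in 1 library lay below and 6.81% above. From P7 to P60 the counts were 12 and 1. Over the 29 members with at least 1 CPM in 1 library they were 11 and 1. Of all genes at that level, 12.1% and 10.2% lay below and above. From e16.5 to P60 the microglia libraries did not overlap, with P60 below, for 24 of the 37 members and with P60 above for 0. Of the 18162 genes with at least 1 CPM in 1 of these libraries, 12.6% lay below and 11.5% above in the same way. At P60, 10 members had no read in any of the 3 libraries, against 3 at P7 and 0 at e16.5.

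**Figure D5:**
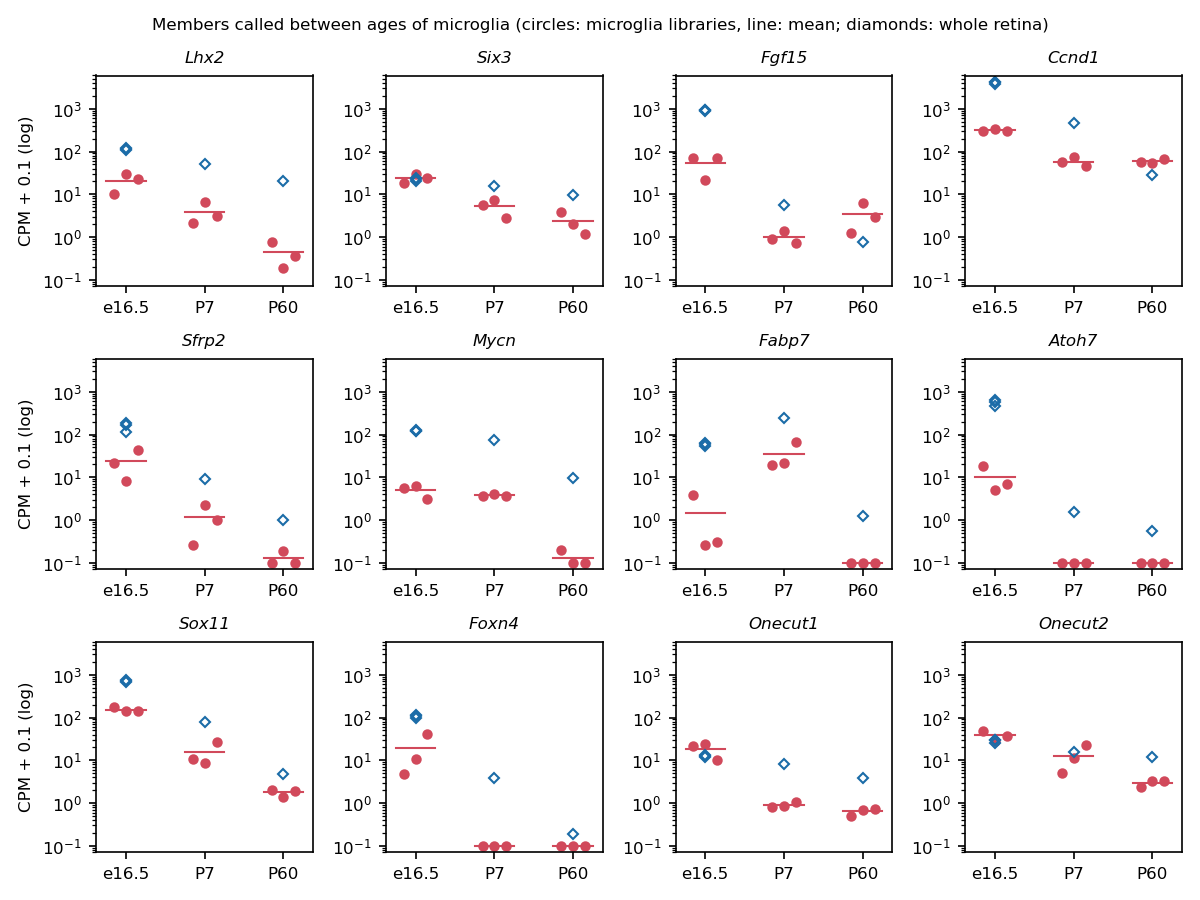
CPM plus 0.1 on a log axis in each microglia library (circles, with a line at the mean of 3) and whole retina library (diamonds) at each age, for the 12 genes called between ages of microglia. In Ccnd1 the microglia drop between e16.5 and P7 and lie above the adult retina; in Fabp7 they are highest at P7 and at 0 at P60.

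Other cell types' markers moved with age in the same microglia libraries. From e16.5 to P60, 4 of 8 tested ganglion cell markers were lower and 0 higher in edgeR, 8 of 9 rod markers were higher, and of 8 Müller glia markers 2 were higher and 3 lower. The 8 Müller glia markers summed to 1212 to 1610.0 CPM at e16.5, 2185 to 4097 at P7 and 819.3 to 1066 at P60. Their sum was thus highest at P7, as Fabp7 was, but a sum weighs the most abundant markers most. The list held Rlbp1, Glul, Slc1a3, Aqp4, Apoe, Vim, Dkk3 and Car2. How much of this RNA the microglia themselves made was not tested. At P7 the median marker stood at 13.0% of whole retina, with 2 above it in all 3 libraries and 5 below. Log2 fold changes were positive for 6 of the 8 markers from e16.5 to P7 and negative for 7 from P7 to P60. In edgeR, 1 of them was higher and 0 lower from e16.5 to P7, and 0 higher and 1 lower from P7 to P60. Over the same intervals 2 and then 1 of the rod markers were higher and 0 lower, and 0 and then 1 of the ganglion cell markers were lower and 0 higher. The part of these cell types in the members' differences was not tested. Whole retina of the same ages, given above, differed in the same direction for each of the 11 members called lower at P60. There, 33 of all 37 members were lower at P60 than at e16.5, called in microglia or not.

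The growth genes Ccnd1 and Fgf15 were called between e16.5 and P7, and Mycn and Fabp7 between P7 and P60. Ccnd1 measured 305, 343 and 303 CPM at e16.5, 55.6, 72.7 and 45.6 CPM at P7 and 56.1, 55.2 and 65.4 CPM at P60. It fell by 2.43 on the log2 scale from e16.5 to P7 (SE 0.29, edgeR adjusted p = 0.0103) and its P7 and P60 libraries overlapped. Fgf15 measured 70.1, 21.8 and 71.1 CPM at e16.5, 0.795, 1.27 and 0.621 CPM at P7 and 1.16, 6.11 and 2.77 CPM at P60. It fell by 5.90 on the log2 scale from e16.5 to P7 (SE 0.85, edgeR adjusted p = 0.0171) and by 3.96 from e16.5 to P60. Mycn measured 5.50, 6.27 and 3.03 CPM at e16.5 and 3.499, 4.049 and 3.516 CPM at P7, and then 0.0966, 0 and 0 CPM at P60. Its fall from P7 to P60 had an edgeR adjusted p of 0.0363 and a log2 fold change of -6.48 (SE 1.29), with a single read left at P60. Sfrp2 measured 21.1, 8.23 and 43.8 CPM at e16.5, 0.159, 2.19 and 0.896 CPM at P7 and 0, 0.0849 and 0 CPM at P60 (edgeR adjusted p = 0.00779 from e16.5 to P60). Fabp7 measured 3.67, 0.157 and 0.206 CPM at e16.5, 19.6, 21.2 and 65.2 CPM at P7 and 0 in all 3 libraries at P60. All P7 libraries were above all e16.5 libraries, but edgeR did not call that difference (adjusted p = 0.30), while DESeq2 did. From P7 to P60 Fabp7 was at least 393-fold lower, set against 3 reads over the P60 libraries (edgeR adjusted p = 0.0286). Leaving out P7 replicate 1 or 3 ended the calls of Ccnd1 and Fgf15 before P7, and the Fgf15 call was also lost without P7 replicate 2 or e16.5 replicate 1 or 3. Both calls were also lost with the gene length offset (edgeR adjusted p = 0.0743 for each), and that of Fgf15 with limma-voom (adjusted p = 0.0564). The Fabp7 call was lost without any P7 library or P60 replicate 2 or 3, and the Mycn call from P7 to P60 without any library but P60 replicate 1, with edgeR adjusted p of at most 0.13. The Mycn call also ended with limma-voom, scaling by total counts alone, the gene length offset and only those ages in the fit (adjusted p between 0.0518 and 0.0694). Whole retina had the same order of ages for Fabp7, with 58.5 ± 3.66 CPM (SD, n = 3), 240 CPM and 1.15 CPM.

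Among the proneural and SoxC genes, Sox11 was called in all 3 comparisons. It measured 175, 141 and 145 CPM at e16.5, 10.34, 8.604 and 27.16 CPM at P7 and 1.93, 1.27 and 1.79 CPM at P60. No libraries of different ages overlapped, and the log2 fold changes were -3.32 (SE 0.48, edgeR adjusted p = 0.0171) to P7 and -3.15 (SE 0.50, adjusted p = 0.0134) from P7 to P60. Its call to P7 was lost without P7 replicate 1 or 2 or any e16.5 replicate, and its call from P7 to P60 without P60 replicate 2 (edgeR adjusted p = 0.0533), while its fall from e16.5 to P60 was called without any 1 library. The gene length offset ended the call to P7 (edgeR adjusted p = 0.0743), and limma-voom (adjusted p = 0.117) and only those ages in the fit (edgeR adjusted p = 0.108) that from P7 to P60. Sox4 was not called, at 89.4, 37.8 and 87.0 CPM at e16.5, 88.1, 75.6 and 98.5 CPM at P7 and 44.7, 32.3 and 35.4 CPM at P60. Atoh7 measured 18.8, 4.94 and 7.02 CPM at e16.5 and 0 in all 6 later libraries, at least 114-fold lower at P60 (edgeR adjusted p = 0.0242, and between 0.0568 and 0.0693 without any e16.5 library). Neurod1 was not called between any ages, at 24.7, 8.54 and 11.5 CPM at e16.5, 65.2, 28.1 and 54.7 CPM at P7 and 14.98, 50.84 and 46.6 CPM at P60. Olig2 was at 0 in 2 of the P7 libraries and at 8.76 CPM in replicate 3, which stands apart.

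Eye field factors and factors of horizontal cells made up the other calls. Lhx2 measured 9.84, 29.2 and 22.4 CPM at e16.5, 1.99, 6.50 and 2.97 CPM at P7 and 0.677, 0.0849 and 0.268 CPM at P60 (log2 -5.81 from e16.5 to P60, SE 1.02, edgeR adjusted p = 0.0116). Six3 measured 17.9, 29.7 and 23.3 CPM at e16.5, 5.57, 7.42 and 2.69 CPM at P7 and 3.67, 1.95 and 1.07 CPM at P60 (log2 -3.34, SE 0.74, edgeR adjusted p = 0.0328). The mean of both genes was lower at each later age, with no overlap between e16.5 and P60. Pax6 measured 48.5, 54.1 and 45.3 CPM at e16.5, 20.4, 86.5 and 24.3 CPM at P7 and 4.54, 20.5 and 8.30 CPM at P60, and was not called (edgeR adjusted p = 0.12 from e16.5 to P60). Onecut1 measured 21.1, 23.9 and 9.91 CPM at e16.5, 0.716, 0.759 and 0.965 CPM at P7 and 0.387, 0.594 and 0.625 CPM at P60 (log2 -5.01, SE 0.82, edgeR adjusted p = 0.00848 from e16.5 to P60). Onecut2 measured 49.0, 28.6 and 37.6 CPM at e16.5, 5.01, 11.2 and 22.1 CPM at P7 and 2.22, 3.23 and 3.13 CPM at P60 (log2 -3.69, SE 0.66, edgeR adjusted p = 0.0132). Onecut1 was thus low from P7 on, while Onecut2 had a P7 level between the others. Foxn4 measured 4.75, 10.9 and 40.8 CPM at e16.5 and 0 in all 6 later libraries, at least 209-fold lower at P60 (edgeR adjusted p = 0.0202). From e16.5 to P60, leaving out e16.5 replicate 2 ended the calls of Lhx2, Six3 and Foxn4, leaving out e16.5 replicate 3 those of Six3 and Foxn4, and Six3 was also lost without e16.5 replicate 1, P7 replicate 1 or P60 replicate 2 or 3 (edgeR adjusted p between 0.05001 and 0.106). Over the same interval the Fgf15 call was lost without e16.5 replicate 1 or 3 or P60 replicate 3, and the Mycn call without e16.5 replicate 2 or P60 replicate 2 or 3 (edgeR adjusted p between 0.0518 and 0.0738). The gene length offset ended the calls of Lhx2, Six3 and Onecut1 (edgeR adjusted p = 0.134, 0.0534 and 0.0717), only those ages in the fit those of Six3 and Fgf15 (0.0593 and 0.0524), and scaling by total counts alone that of Six3 (0.0566). Tfap2a, the member above whole retina at e16.5, measured 17.1, 6.51 and 5.92 CPM, then 6.12, 16.2 and 6.27 CPM and 4.93, 10.6 and 17.0 CPM, with the ages overlapping.

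In edgeR, the tested Notch members and the photoreceptor factors were not called between ages, while Dll4 and Hes5 were too low to be tested. Notch1 measured 97.6, 52.7 and 82.7 CPM at e16.5, 63.9, 51.5 and 48.6 CPM at P7 and 91.5, 74.7 and 76.2 CPM at P60, the only member with all P60 libraries above all P7 libraries. Hes1 measured 7.756, 6.584 and 11.01 CPM at e16.5 and 10.4, 8.27 and 13.2 CPM at P7, and then 3.67, 3.74 and 45.7 CPM at P60, where replicate 3 stands apart. Hes5 measured 1.59, 2.67 and 1.03 CPM at e16.5 and 0.318, 0 and 0.345 CPM at P7, and was at 0 in every P60 library. Prdm1 was highest at P7, at 234, 179 and 281 CPM against 159, 56.0 and 152 CPM at e16.5 and 114, 103 and 24.6 CPM at P60 (edgeR adjusted p = 0.199 from P7 to P60). Otx2 measured 37.9, 20.9 and 82.8 CPM at e16.5, 67.8, 147 and 102 CPM at P7 and 7.15, 26.7 and 1.16 CPM at P60.

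Among the further pathway genes, edgeR called 0 of 30 tested Notch genes between e16.5 and P60, with 1 higher and 5 lower at an unadjusted p under 0.05, while DESeq2 called 0 higher and 5 lower and limma-voom 1 lower. Of 34 further fate factors, 4 were lower, among them Tbx2, Isl1 and Pou4f1, and 1 higher, the rod factor Nrl. Of 21 cell division genes, 9 were lower at P60 and 0 higher, with 14 lower and 0 higher at an unadjusted p under 0.05 and 0 higher with DESeq2 or limma-voom. Cdk1, Rrm2 and Mcm5 had the lowest log2 fold changes, at -5.59, -4.46 and -4.28. Against whole retina at e16.5, edgeR called 12 of 31 Notch genes higher in microglia and 10 lower, where 33.1% and 30.1% of all genes were called. DESeq2 called 11 higher and 12 lower, and limma-voom 12 and 12. Calls in this list were thus split between both directions, near the share over all genes. Maml2, Numb and Adam17 led the higher side, with log2 values of 4.17, 3.21 and 2.95, and Hes6, Dtx1 and Dner the lower side, at -6.21, -4.48 and -3.56 (edgeR adjusted p of these 6 at most 0.0205). Of 35 further fate factors, 23 were lower and 3 higher in the embryonic microglia, and the largest rise was that of the haematopoietic factor Ikzf1, at 786 ± 164 CPM in microglia and 0.493 ± 0.162 CPM in whole retina (SD, n = 3 each).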

How the data were processed

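RNA was sequenced in 14 libraries, 9 of microglia and 5 of whole retina. Per the file headers, the deposited table holds counts and FPKM by library and the results of group comparisons. The submitters' processing notes list Salmon 0.9.1, DESeq2 1.20.0 and GRCm38.p6 without a role, so the deposited counts, whole numbers with differing totals, were treated as estimated counts and rounded. The deposited FPKM divide counts by depth and by a gene length that differs between libraries. The authors also deposited log2 fold changes with p-values, already adjusted, for their own comparisons. Every gene in the table has a highest count of at least 10.

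Microglia ages were tested in 1 fit of 9 libraries and microglia against whole retina in a fit of the 6 libraries of e16.5, with edgeR 4.0.16 in R 4.3.3 (TMM, filterByExpr, quasi-likelihood F test, Benjamini-Hochberg adjustment over all genes tested, threshold 0.05), after the fits were tested on simulated data. SEs were derived from the F statistics. DESeq2 1.42.0, limma 3.58.1 (voom), other scalings, filters, a gene length offset, a replicate block and leaving out each library were the alternatives. CPM use TMM factors over all 14 libraries. Whole retina ratios were taken on log2(CPM + 0.1), for genes with at least 1 CPM in 1 whole retina library, and folds and percentages on CPM. Because this scale adds a pseudocount, it understates the change of low genes. Single-library intervals are exact Clopper-Pearson intervals at 95%, and a group at 0 was set to 3 counts. The labels call the microglia libraries biological replicates and give only replicate numbers for whole retina at e16.5, so p-values there measure the spread between libraries, which may be technical. Replicates differed by more than sampling noise. Promoters came from RefSeq, and coordinates from GENCODE on GRCm38, where all 37 gene IDs matched. The members, lists and tests were chosen with earlier results of these data known. All members are named; those called, highest of their role in FPKM or above whole retina in microglia are given by library, and of other pathway genes the 3 largest called or past 4-fold in each direction. The values of 1 further fate factor are not reported here.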

Additional observations from a re-analysis of the deposited data

Results flagged for a closer look

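Neurod4 differed in direction between tissues over the same ages. In microglia it was lower at P60, at 0.580, 4.41 and 0 CPM, than at e16.5, at 19.2, 36.6 and 10.3 CPM, a 13.24-fold difference of the means, with no overlap of the libraries and no call in edgeR (adjusted p = 0.111). In whole retina it was 1.315-fold higher at P60, at 239 CPM in 1 library, and above all 3 libraries of e16.5, at 170 to 188 CPM. Of all measured genes, 47.5% were above that range at P60. In both tissues Neurod4 was highest at P7, at a mean of 31.7 CPM in microglia and 586 CPM in the 1 whole retina library. The difference between the tissues was not tested.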

How the results depend on the processing

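Counts of called members between microglia ages depended on the method. From e16.5 to P7, edgeR's 3 became 9 with DESeq2, 5 with a minimum of 5 CPM in 3 libraries, 6 with only those ages in the fit and 0 with the gene length offset (13 at an unadjusted p under 0.05). Leaving out 1 library gave 0 to 5, with 0 without P7 replicate 1 (12 at an unadjusted p under 0.05), 1 without P7 replicate 2 or 3 or e16.5 replicate 1 or 3, and 5 without P60 replicate 3. From P7 to P60, 3 became 12 with DESeq2, 1 with limma-voom and 1 with only those ages in the fit, and leaving out 1 library gave 1 to 3, with 1 without any P7 library and without P60 replicate 2 or 3. From e16.5 to P60, 11 became 23 with DESeq2, and leaving out 1 library gave 6 to 11, with 6 without e16.5 replicate 2 and 7 without e16.5 replicate 3. Of the 11, Ccnd1, Sfrp2, Sox11 and Onecut2 were called under every alternative that tested them. Against whole retina at e16.5 the count stayed between 25 and 32. Further choices on the median percent of whole retina were added after seeing the data: over the members with at least 1 CPM in whole retina at every age it was 10.24% at e16.5 against 8.68%, and without a minimum it was 8.68%, 9.43% and 9.44% at the 3 ages. In whole retina from e16.5 to P7, 15 members past 4-fold became 26 at a 2-fold threshold. A replicate block gave 3, 4, 13 and 30 members in these 4 tests, and it ended no call of a member. Between microglia ages, same-numbered libraries correlated by 0.023 to 0.195 in their deviations, and libraries of different number by -0.151 to 0.046. The numbers name separate pools of animals and were not taken as pairs in the main fit. Scaling by total counts alone shifted the median log2 ratio of all genes to 0.292 (P7 to P60) and 0.251 (e16.5 to P60) in microglia, to -0.512 against whole retina and to 0.256 in whole retina at P7, and changed the split of higher and lower genes from 42 and 175 to 61 and 99 between P7 and P60, with no member reversed. No call changed direction under any alternative. The P7 and P60 retinas, 1 library each, have no replicate check, and genes with few reads there, such as Foxn4 and Dlx1, have wide intervals.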
